A study of Mus musculus with 3 samples.

Results

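The expression of 10 genes of the blood-brain barrier was followed in the endothelium of mouse gliomas. The genes were Cldn5, Ocln and Tjp1 of the tight junction, the lipid transporter Mfsd2a, the efflux pumps Abcb1a and Abcg2, the uptake transporter Slco1a4, and the vessel genes Plvap, Esm1 and Cav1. They were taken by name, as 10 of the 50262 genes of the table. Endothelial cells were chosen by a gate, at least 3 UMIs (unique molecular identifiers, counts of captured mRNA molecules) summed over Cldn5, Flt1, Cdh5 and Pecam1. The gate held 430 of the 6596 filtered CD45- cells, among 20811 deposited cells of the series.

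Tumors were induced in adult mice that carried a conditional human EGFR transgene, were Cdkn2a-/- and had a conditional luciferase reporter. A Cre lentivirus was injected into the striatum, so that any infected cell type could recombine. Males and females of a mixed strain background were used. The groups are the early, medium and late stages of tumor growth, which shared their genotype. Brains were dissociated, depleted of myelin and red cells, and sorted by CD45, a surface protein of leukocytes. Droplet libraries (inDrop) were made from the CD45- sort, which holds tumor, glial and vascular cells. The libraries of a stage share 1 tumor label in their names, so each stage was taken as 1 tumor sample. The 3 deposited samples are sequencing runs, each with libraries of every stage. The methods state that early samples were pooled because cells were few. Each stage has 4 libraries of the CD45- sort, taken as technical repeats of its tumor sample and spread over 3 sequencing runs. Normal brain was not analysed here.

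Brain endothelial cells are sealed to each other by tight junctions, carry few vesicles, and export drugs and import nutrients through a distinct set of transporters. Mfsd2a carries lysophosphatidylcholine lipids and keeps transcytosis through caveolae low, while Wnt signaling from the neural tissue maintains the barrier program. Plvap forms the diaphragms of fenestrated and leaky vessels and is low in mature barrier vessels. Esm1 is a marker of tip cells, the leading cells of vessel sprouts.

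In GRCm38 the junction genes lie at chr16:18776847-18778262 (Cldn5), chr13:100496507-100552718 (Ocln) and chr7:65296165-65527781 (Tjp1). The transporters lie at chr4:122946850-122961188 (Mfsd2a), chr5:8660077-8748575 (Abcb1a), chr6:58584523-58695676 (Abcg2) and chr6:141805440-141856199 (Slco1a4). Plvap lies at chr8:71497765-71511752, Esm1 at chr13:113209659-113218098 and Cav1 at chr6:17306335-17341452.

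The start sites of 4 members are shown because the results turn on these genes. Cldn5, Mfsd2a and Slco1a4 are genes of barrier vessels, and the 10 gated cells with Esm1 were among the 32 gated cells with Plvap. Each window runs from 250 bases before to 50 bases after the start of the gene (RefSeq, GRCm38.p6). A window was found for 9 of the 10 members. Cldn5 is at chr16:18776597-18776896 on the plus strand, Mfsd2a at chr4:122961139-122961438 on the minus strand, Slco1a4 at chr6:141856171-141856470 on the minus strand and Esm1 at chr13:113209409-113209708 on the plus strand.
Cldn5: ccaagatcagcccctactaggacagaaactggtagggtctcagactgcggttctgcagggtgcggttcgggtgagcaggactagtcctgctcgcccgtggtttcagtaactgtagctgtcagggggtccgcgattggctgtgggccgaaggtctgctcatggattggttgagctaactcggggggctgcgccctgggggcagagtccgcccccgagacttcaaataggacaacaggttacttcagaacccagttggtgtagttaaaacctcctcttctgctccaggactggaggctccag
Mfsd2a: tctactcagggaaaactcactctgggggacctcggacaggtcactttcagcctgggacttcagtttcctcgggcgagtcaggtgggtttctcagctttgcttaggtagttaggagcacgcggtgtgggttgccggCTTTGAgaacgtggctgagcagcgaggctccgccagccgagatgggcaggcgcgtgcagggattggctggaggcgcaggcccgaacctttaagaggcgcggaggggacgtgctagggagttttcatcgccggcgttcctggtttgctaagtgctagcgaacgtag
Slco1a4: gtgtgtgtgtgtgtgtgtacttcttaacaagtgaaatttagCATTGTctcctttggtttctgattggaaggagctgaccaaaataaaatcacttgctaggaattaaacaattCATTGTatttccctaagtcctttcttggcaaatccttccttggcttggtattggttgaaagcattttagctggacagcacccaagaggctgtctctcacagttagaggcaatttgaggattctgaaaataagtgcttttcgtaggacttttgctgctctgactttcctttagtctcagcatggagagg
Esm1: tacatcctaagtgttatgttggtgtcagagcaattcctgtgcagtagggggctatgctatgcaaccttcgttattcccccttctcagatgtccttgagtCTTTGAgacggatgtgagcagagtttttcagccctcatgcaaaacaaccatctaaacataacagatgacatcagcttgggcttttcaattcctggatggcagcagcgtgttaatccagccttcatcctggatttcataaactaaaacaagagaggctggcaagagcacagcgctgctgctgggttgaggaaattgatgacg
Capitals mark matches to 3 short motifs of factors that act in endothelium, searched on both strands. They were the ETS core CCGGAA, the TCF/LEF core CTTTGA of Wnt signaling and the SOX core ACAATG, which reads CATTGT on the opposite strand. Mfsd2a had a TCF/LEF match 115 bases before the start and Esm1 1 at 151 bases before it. Slco1a4 had SOX matches at 209 and 138 bases before the start, both on the reverse strand. Cldn5 had no match in this window. Of 32851 promoters of the same length, 14.9% held the ETS, 16.0% the TCF/LEF and 12.6% the SOX letters, so such matches are frequent.

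The sums of the gated cells were rich in endothelial genes, though they also held cells of other clusters, as given below. Of 14 further endothelial genes tested outside the gate, all were higher in gated cells than in other CD45- cells. The gated share was 178 of 2725 cells at the early stage (6.53%, 95% exact binomial interval 5.63 to 7.53), 152 of 1603 at the medium stage (9.48%, 8.09 to 11.02) and 100 of 2268 at the late stage (4.41%, 3.602 to 5.34). These cells held 308209, 347962 and 397452 UMIs, with 12 to 74 gated cells per library. The gate sum was 3 UMIs in 36 gated cells, above 6 in 329, and 2 UMIs in 106 cells that stayed outside. UMIs of the leukocyte gene Ptprc numbered 0, 1 and 4. Xist was present in gated cells of the early stage (47 UMIs) and at 0 in the medium and late stages, so sex and stage cannot be told apart. The human EGFR transgene was at 0 in early gated cells, and also at 0 in the 193 early glioma-like or progenitor-like cells, and reached 76 and 106 UMIs in medium and late gated cells. Of 8190 distinct barcodes 801 occurred in at least 2 libraries, and 14 gated cells shared a barcode with another library of their run.

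Gated cells were first compared with all other CD45- cells to ask which members mark endothelium in these tumors. Counts were summed per tumor sample, which gave 3 pairs, and counts per 1000000 UMIs of each sum (CPM) are given for the early, medium and late samples in turn. Of the 9 members that could be tested, 8 were higher in gated cells by the edgeR quasi-likelihood test with Benjamini-Hochberg adjustment, and Plvap was not called. Of all 15413 genes tested 7.1% were higher and 6.92% lower.

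The tight junction genes were led by Cldn5, the claudin that seals brain endothelium. Its level was 2995, 2348 and 1361 CPM in gated cells and 2.95, 0.805 and 0.491 CPM in the others, a difference that the gate itself sets and that was not tested. When the gate was formed from Flt1, Cdh5 and Pecam1 alone (389 cells), Cldn5 was still higher in gated cells (log2 fold change 7.62, SE 0.27, adjusted p = 1.7e-13 by edgeR). Occludin (Ocln), a second transmembrane protein of the junction, measured 324, 253 and 141 CPM against 24, 10.9 and 8.14 CPM, and was higher in 3 of 3 tumor samples (log2 fold change 4.12, SE 0.29, adjusted p = 7.9e-08 by edgeR). Tjp1, the scaffold ZO-1, measured 357, 296 and 194 CPM against 68.8, 77.1 and 65.5 CPM and differed least of the 3 junction genes (1.96, SE 0.24, adjusted p = 3.2e-05 by edgeR, 3 of 3).

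Among the transporters, the widest margins were those of Slco1a4 and Abcb1a. Slco1a4, an organic anion uptake transporter, measured 1129, 1000.1 and 433 CPM in gated cells and 10.8, 6.28 and 3.24 CPM in the others (log2 fold change 7.01, SE 0.26, adjusted p = 8.8e-11 by edgeR, higher in 3 of 3 tumor samples). Abcb1a, the P-glycoprotein drug pump, measured 1301, 1256 and 365 CPM against 17.6, 15.1 and 4.42 CPM (6.31, SE 0.23, adjusted p = 8.8e-11 by edgeR, 3 of 3). Abcg2, the breast cancer resistance protein, measured 600.2, 388 and 214 CPM against 30.3, 20.9 and 24.4 CPM (3.89, SE 0.28, adjusted p = 1.0e-07 by edgeR, 3 of 3). For each of these 3 genes, and likewise for Mfsd2a and Ocln, no library of the gated cells overlapped the other cells. The share of all genes without such overlap was not counted. Mfsd2a measured 341, 216 and 224 CPM against 24.6, 28.2 and 34.4 CPM, and its difference was the smallest of the transporters (3.14, SE 0.27, adjusted p = 9.9e-07 by edgeR, 3 of 3).

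Plvap, Esm1 and Cav1 were present at lower counts and varied more. Plvap measured 114, 187 and 75.5 CPM in gated cells and 4.62, 10.5 and 39.2 CPM in the others (log2 fold change 3.25, SE 0.82, adjusted p = 0.0626 by edgeR, higher in 3 of 3 tumor samples). Its call changed with the samples and settings used. Plvap passed the threshold without the late sample (log2 fold change 4.35, adjusted p = 8.1e-09) or the medium sample (adjusted p = 9.4e-06) but not without the early sample (adjusted p = 0.221). It also passed with DESeq2 (adjusted p = 5.2e-06), without pairing the samples (adjusted p = 0.0329) and with a gate of at least 2 UMIs (adjusted p = 0.0255). Esm1 measured 74.6, 37.4 and 52.8 CPM against 4.36, 4.03 and 0.196 CPM (4.64, SE 0.77, adjusted p = 0.0014 by edgeR, 3 of 3). Cav1, the coat protein of caveolae, measured 136, 256 and 67.9 CPM against 8.09, 45.1 and 34.3 CPM (2.51, SE 0.53, adjusted p = 0.0157 by edgeR, 3 of 3).

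**Figure D1:**
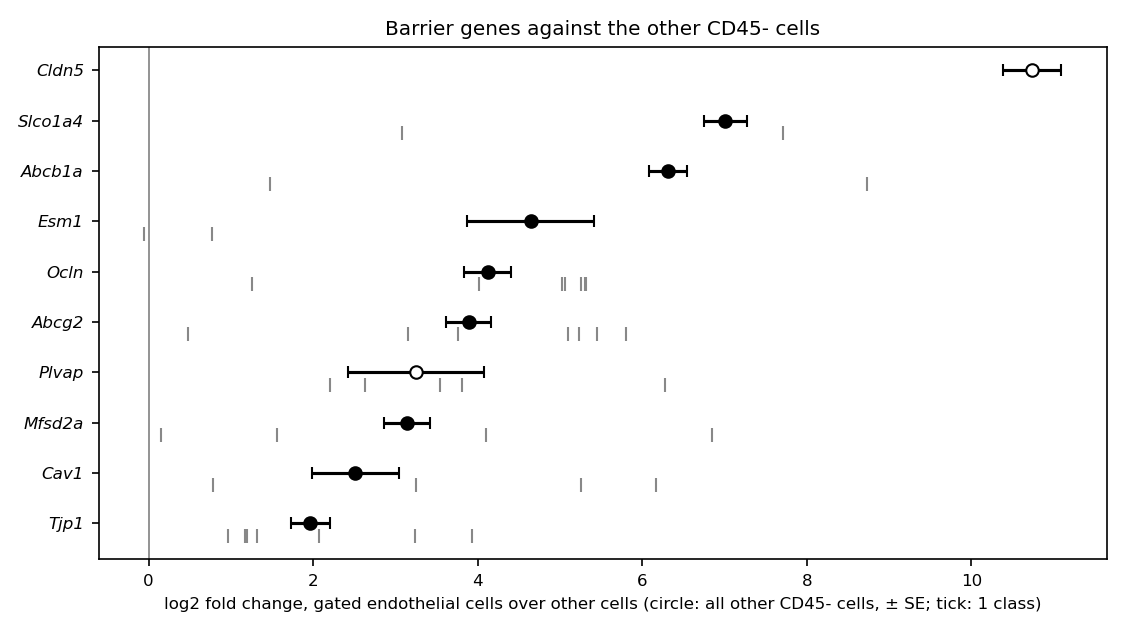
Log2 fold change of each member between gated endothelial cells and all other CD45- cells, with SE bars from the edgeR fit over 3 tumor samples; filled points passed an adjusted p of 0.05, open points are Cldn5, which was not tested, and Plvap, which was not called, and grey ticks are the fold changes against single cell classes. Slco1a4 and Abcb1a lie highest among the tested members (7.01 and 6.31) and Tjp1 lowest (1.96).

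Other genes of the barrier were counted with the members and gate genes left out of each list. Of 22 transporter genes tested 19 were higher and 0 lower in gated cells (median log2 fold change 3.28), against a median of -0.18 over all genes. Of 15 tight and adherens junction genes 10 were higher and 1 lower (median 1.30), of 20 genes of Wnt signaling and barrier regulation 15 were higher and 0 lower (2.81), and of 6 genes of caveolae and diaphragms 5 were higher and 0 lower (2.30). Of 8 capillary genes 8 were higher, of 11 arterial genes 5, of 9 venous genes 6, of 21 tip cell and angiogenesis genes 13, and of 9 leukocyte adhesion genes 3, with 0 lower in each. Immediate-early and heat shock genes, which respond to tissue dissociation, were also higher in 11 of 13. Of 12 cell cycle genes 0 were called in either direction.

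Markers of other cell types in the gated sums were measured beside these results. Of 10 mural genes, which mark pericytes and smooth muscle, 7 were higher in gated cells (median log2 fold change 2.91), and of 7 fibroblast markers 3 were higher and 1 lower. Oligodendrocyte markers were lower in 8 of 8, glioma or progenitor markers in 7 of 8, and microglia or macrophage markers in 6 of 8. Of the gated cells, 89 carried at least 3 mural UMIs and 41 at least 3 oligodendrocyte UMIs. With those cells left out, Plvap passed the threshold (3.63, adjusted p = 1.6e-04 by edgeR), and the 8 called members kept their calls.

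Several members were also present in particular cell classes, as measured by contrasts of gated cells with 7 classes of the other CD45- cells in a single fit of 11341 genes. Mural-like and ependymal-like cells, with under 20 cells in a tumor sample, and unnamed clusters were not in this fit. Classes were rebuilt by clustering and are named as "-like" because they rest on RNA markers alone. All 9 members tested were higher in gated cells than in oligodendrocyte-like (22.3% of all genes were higher), choroid plexus-like (19.9%) and neuron-like cells (18.8%). Against microglia-like cells (15.7%) and glioma-like or progenitor-like cells (12.2%) 8 members were higher. Against astrocyte-like (10.4%) and fibroblast-like cells (5.32%) 6 were.

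Mfsd2a was not called between gated and astrocyte-like cells, with a log2 fold change of 0.15 (SE 0.43, adjusted p = 0.863 by edgeR), or of 1.54 (SE 0.70, adjusted p = 0.205) with classes taken from marker sums in place of clusters. Its level in astrocyte-like cells was 255, 237 and 182 CPM at the early, medium and late stages, with at least 1 UMI in 33.7%, 37.5% and 17.9% of cells. Glioma-like or progenitor-like cells held 171, 42.0 and 105 CPM of Mfsd2a, which was lower than in gated cells (log2 fold change of gated cells 1.56, SE 0.40, adjusted p = 0.0050 by edgeR). Oligodendrocyte-like cells, with 12.1 CPM over all stages, show the level in a class where Mfsd2a is low.

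The pumps were also present in fibroblast-like cells. These cells held 202 UMIs of Abcg2 (296 CPM over all stages), and the difference from gated cells was 0.48 on the log2 scale (SE 0.46, adjusted p = 0.641 by edgeR), or 1.30 (SE 0.49, adjusted p = 0.141) with classes from marker sums. They also held 215 UMIs of Abcb1a (315 CPM), and gated cells were higher by 1.48 (SE 0.36, adjusted p = 0.0070 by edgeR). The gated sums of this contrast included gated cells that lay in fibroblast-like clusters, and their part in these differences was not tested. Slco1a4 was lowest in its margin over choroid plexus-like cells, which held 58.6 CPM (log2 fold change 3.08, SE 0.43, adjusted p = 4.8e-06 by edgeR). Ocln was likewise closest to choroid plexus-like cells, an epithelium with tight junctions of its own (62.7 CPM; log2 fold change 1.25, SE 0.41, adjusted p = 0.0179 by edgeR).

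Tjp1 was the most widely shared junction gene and was not called against astrocyte-like (1.19, SE 0.54, adjusted p = 0.127), fibroblast-like (0.97, SE 0.50, adjusted p = 0.275) or microglia-like cells (1.32, SE 0.52, adjusted p = 0.0643 by edgeR). Cav1 was not called against glioma-like or progenitor-like cells (0.78, SE 0.47, adjusted p = 0.266 by edgeR), which held 109, 97.4 and 69.3 CPM of it at the 3 stages. Esm1 was not called against fibroblast-like cells (0.77, SE 0.99, adjusted p = 0.749 by edgeR) or astrocyte-like cells (-0.05, adjusted p = 1), where 28 early UMIs lay in 3 of 86 cells and 25 of them in 1 cell. Plvap was higher than in each of the 7 classes, with its smallest margin against astrocyte-like cells (2.20, SE 0.75, adjusted p = 0.0380 by edgeR). An unnamed cluster led by Itga8, which was not in this fit, held Plvap at 84.9 CPM over all stages. With classes from marker sums, the calls of Plvap (adjusted p = 0.106) and Cav1 (0.0795) against astrocyte-like cells, of Mfsd2a against glioma-like or progenitor-like cells (0.0864) and of Esm1 against 3 classes were lost, while Tjp1 passed against astrocyte-like (0.0061) and microglia-like cells (0.0480).

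**Figure D2:**
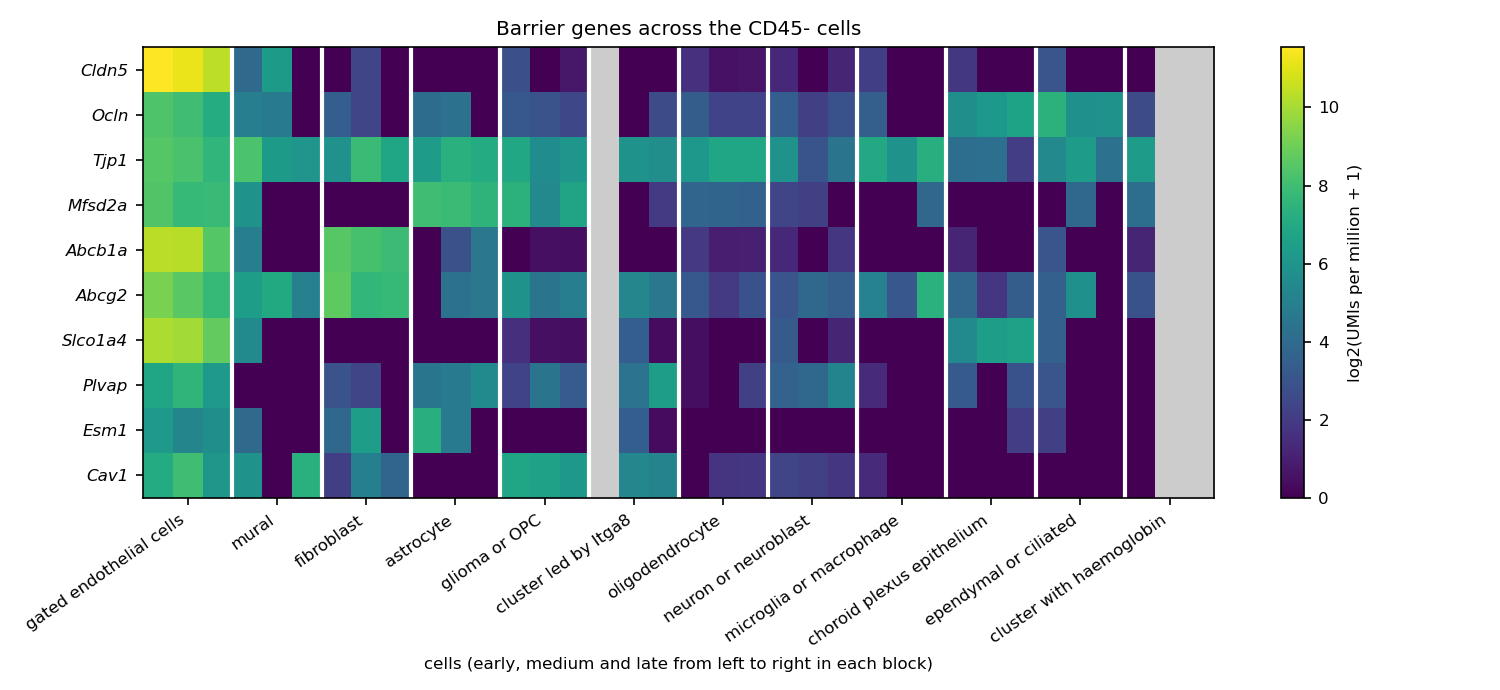
Level of each member as log2(CPM + 1) in gated endothelial cells and in the other CD45- cell groups at the early, medium and late stages; grey cells mark groups with under 10 cells. Most members are highest in the gated column, while Mfsd2a is also high in astrocyte-like cells (255 CPM early) and Abcg2 in fibroblast-like cells (296 CPM over all stages).

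Before the stages were compared, the gated cells were split by cluster, because the gate held other cells at each stage. Members other than Cldn5 were left out of the clustering. A large endothelial-like cluster (10 of 10 endothelial markers) held 141, 116 and 64 gated cells at the early, medium and late stages, and a small one of 24 cells (8 of 10 markers) held 10, 10 and 3. The large cluster was led by Cldn5, Ly6c2, Ly6c1 and Tek, and the small one by Exoc3l2, Cd300lg, Gpihbp1 and Rbp7. The other 27, 26 and 33 gated cells lay in other clusters, mostly mural-like (11, 12 and 11) and fibroblast-like (7, 9 and 10). At the late stage 6 cells lay in an unnamed cluster led by Itga8.

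These other cells were deep, with medians of 2094, 3185 and 5136 UMIs. They therefore held 25.8%, 37.6% and 65.7% of all UMIs of the gated cells at the early, medium and late stages. Endothelial-like clusters held the remaining 74.2%, 62.4% and 34.3%. Fibroblast marker UMIs in the gated sums went from 181 at the early to 743 at the late stage, and neuron marker UMIs from 61 to 508. Erythroid marker UMIs went the other way, from 5533 to 170.

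**Figure D3:**
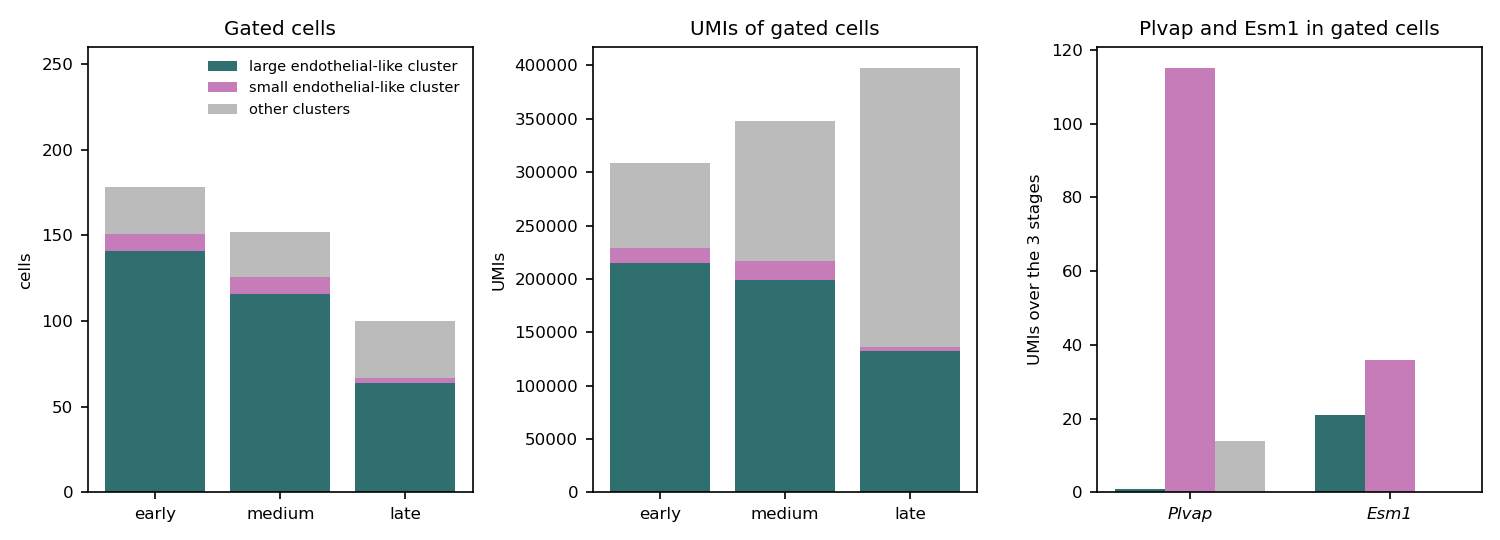
Content of the gated cells at each stage, as cells and UMIs in the large endothelial-like, the small endothelial-like and all other clusters, and as UMIs of Plvap and Esm1 in each. The other clusters hold 65.7% of the UMIs of late gated cells, and the small cluster holds 35, 60 and 20 of the Plvap UMIs.

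Stages were compared as ratios of CPM with no test, because each stage holds 1 tumor sample. Intervals are exact 95% intervals for counting error only. Over all gated cells, 6 of 10 members were at least 2-fold lower at the late than at the early stage and 0 were at least 2-fold higher. Of all 6806 genes with at least 20 UMIs over both stages, 9.43% were lower and 19.1% higher. Of 14 pan-endothelial genes outside the gate, 8 were also lower and 0 higher, with a median log2 ratio of -1.04. With a gate of at least 5 UMIs 2 of 10 members were lower, where 9.6% of all genes were. Over gated cells under 5000 UMIs 1 of 10 was lower, where 10.1% of all genes were.

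Abcb1a differed most. Its 4 early libraries held 1065, 1360, 1320 and 1162 CPM, the medium libraries 1230, 1317, 1455 and 1004 CPM, and the late libraries 464, 318, 544 and 351 CPM. Every late library lay below every early and medium library, and the log2 ratio of late over early was -1.83 (-2.12 to -1.56). The share of all genes whose libraries separated in this way was not counted, and the libraries are technical repeats. Slco1a4 held 897, 1199.7, 1095 and 1073 CPM in the early libraries and 825, 398, 634 and 252 CPM in the late ones, which did not overlap, with a log2 ratio of -1.38 (-1.66 to -1.12). Abcg2 held 841, 684, 479 and 514 CPM early and 516, 148, 317 and 197 CPM late, which overlapped in 1 late library, with a log2 ratio of -1.49 (-1.88 to -1.11).

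Among the junction genes Cldn5 had a log2 ratio of -1.14 (-1.29 to -0.98), from 3084, 3439, 2572 and 2503 CPM in the early to 2681, 1267, 1766 and 834 CPM in the late libraries. Late library 1 overlapped the early libraries and the other 3 lay below. Ocln had a log2 ratio of -1.20 (-1.70 to -0.72), from 392, 398, 244 and 246 CPM to 103, 152, 226 and 87.8 CPM, with all late libraries below the early ones. As for Abcb1a and Slco1a4, the share of all genes that separated so was not counted. Cav1 was just past the 2-fold limit (2.01-fold lower, log2 ratio -1.004, -1.76 to -0.27). Tjp1 (-0.88, -1.32 to -0.45) and Mfsd2a (-0.61, -1.03 to -0.18) were lower by less than 2-fold, and the intervals of Plvap (-0.59, -1.34 to 0.16) and Esm1 (-0.50, -1.42 to 0.42) included 0. Plvap passed the 2-fold limit without late library 4 (-1.31), which held 16 of its 30 late UMIs, and Esm1 passed it without early library 2 (-1.05) or late library 1, which held all its late UMIs. Cldn5 (-0.94) and Ocln (-0.89) were short of the limit without early library 2, Cldn5 also without late library 4 (-0.98), and Cav1 did so in 5 of 8 omissions, with -0.57 without late library 2.

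Between the medium and early stages 0 members differed by 2-fold in either direction, while 11.9% of 6052 genes were higher and 8.38% lower. Cav1 was higher by 0.91 on the log2 scale (0.36 to 1.47) and Plvap by 0.72 (0.10 to 1.35) at the medium stage. Mfsd2a (-0.66, -1.11 to -0.22), Abcg2 (-0.63, -0.96 to -0.30) and Cldn5 (-0.35, -0.49 to -0.21) were lower. Esm1 lay next to the limit, 1.997-fold lower. Between the late and medium stages 4 members were at least 2-fold lower and 0 higher, against 8.94% lower and 15.4% higher of 7115 genes. They were Cav1 (-1.91, -2.59 to -1.28), Abcb1a (-1.78, -2.06 to -1.51), Plvap (-1.31, -1.98 to -0.66) and Slco1a4 (-1.21, -1.48 to -0.94). Only run 3 had at least 20 gated cells of both the early and the late stage, and there 7 of the 9 members with at least 20 UMIs were at least 2-fold lower late than early (Esm1 was not counted), among them Slco1a4 (-2.11), Abcb1a (-1.86), Cldn5 (-1.61) and Mfsd2a (-1.08). Of all 2500 genes counted in run 3, 15.2% were lower. The late stage of run 3 was late library 4 alone, which had the lowest Cldn5 and Slco1a4 of the late libraries.

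Within the endothelial-like clusters most of these differences were small. Here 0 of 10 members differed by 2-fold in either direction between the late and early stages, against 10.9% lower and 11% higher of 3714 genes. Between the medium and early stages the count was also 0 in both directions, against 8.84% lower and 9.8% higher of 4274 genes. Between the late and medium stages Abcb1a was 2-fold lower (log2 ratio -1.12, -1.44 to -0.82). Esm1 was higher there (1.36, 0.30 to 2.48), with its late UMIs in 1 cell. Of 3659 genes in that comparison 11.3% were lower and 10.4% higher. The median log2 ratio of the 14 pan-endothelial genes outside the gate was 0.03. Levels of the gate genes, Cldn5 among them, are in part set by the gate, and here also by the clustering, which did not leave them out. The markers of other cell types in these cells differed between the stages, with 106 and 170 UMIs for erythroid, 223 and 29 for choroid plexus and 238 and 15 for oligodendrocyte markers at the early and late stages. All 170 late erythroid UMIs and 27 of the 29 late choroid plexus UMIs lay in late library 2, and 168 of the 223 early choroid plexus UMIs in early library 3. Their part in the ratios was not tested.

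Cldn5 was nearly level, at 3773, 3433 and 3585 CPM at the early, medium and late stages (log2 ratio of late over early -0.07, -0.24 to 0.09). Its libraries ranged from 3210.2 to 4312 CPM early and from 2837 to 4133 CPM late. Ocln was at 380.4, 378 and 374 CPM and Tjp1 at 463, 346 and 403 CPM. For each junction member the interval of the late over early ratio included 0, with log2 ratios of -0.03 (-0.55 to 0.49) for Ocln and -0.20 (-0.70 to 0.28) for Tjp1.

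Abcb1a remained the most different member between the late and early stages, at 1530, 1788 and 821 CPM (log2 ratio -0.90, -1.22 to -0.59, which is 1.86-fold lower). Its early libraries held 969, 1674, 1550.2 and 1307 CPM and its late libraries 501, 1046, 624 and 899 CPM, so that the stages overlapped through the lowest early library, which held 11 cells. In run 3 alone, where late library 4 was the only late library, it was at 1475 CPM early and 899 CPM late. Abcb1a shares 13.6% of the 31-base words in the last 1000 bases of its transcripts with other genes, mainly Abcb1b, which held 9, 9 and 5 UMIs in gated cells.

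The other transporters differed in direction. Abcg2 was at 682, 488 and 439.8 CPM (log2 ratio -0.63, -1.09 to -0.19) and Slco1a4 at 1412, 1484 and 1151 CPM (-0.30, -0.58 to -0.02). Mfsd2a was at 424, 336 and 608 CPM and was higher at the late stage by 0.52 on the log2 scale (0.08 to 0.96). Its early libraries held 182, 520.0, 381 and 334 CPM and its late libraries 751, 637, 260.2 and 599 CPM, which overlapped. Of the 27 Mfsd2a UMIs of late library 1, 16 came from 1 cell, the same cell that held the late Esm1 UMIs. The ratio and its interval rest on 83 late UMIs that include these 16. Over all gated cells the log2 ratio of Mfsd2a was -0.61 with this cell and -0.84 without it. The glucose transporter Slc2a1 of the blood-brain barrier was at 2020.1, 2087 and 1664 CPM (log2 ratio -0.28).

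**Figure D4:**
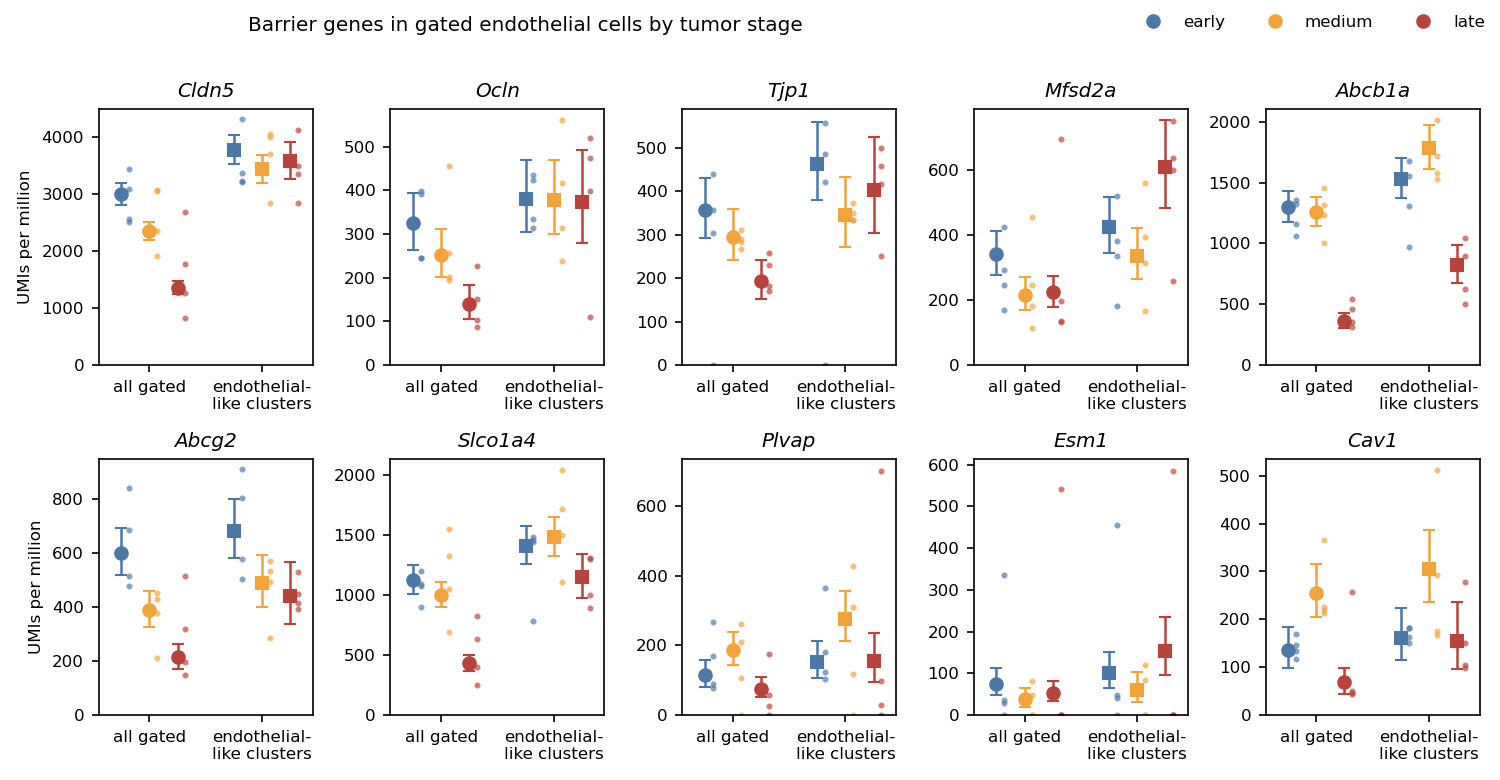
Level of each member in CPM at the early, medium and late stages, with circles for all gated cells, squares for those in endothelial-like clusters, bars for exact 95% Poisson intervals and small dots for the 4 libraries. Over all gated cells Abcb1a is at 1301, 1256 and 365 CPM. In the endothelial-like clusters Cldn5, which the gate used and the clustering kept, lies between 3433 and 3773 CPM.

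Plvap UMIs of the endothelial-like clusters lay in few cells. The small endothelial-like cluster held 35, 60 and 20 Plvap UMIs at the early, medium and late stages, in each of its 10, 10 and 3 gated cells. The large cluster held 0, 0 and 1. Esm1 held 23, 13 and 0 UMIs in the small cluster, in 5, 4 and 0 of its cells, and 0, 0 and 21 UMIs in the large one.

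Over all stages 32 gated cells had at least 1 Plvap UMI, of which 2 medium and 6 late cells lay outside the endothelial-like clusters. The counts that follow describe cells, which are not replicates. Of the 32, 2 (6.25%) had Cldn5, a gate gene, 0 had Slco1a4, 1 had Abcb1a, 1 had Slc2a1 and 2 had Mfsd2a. Of the 398 gated cells without Plvap, 350 (87.9%) had Cldn5, 271 (68.1%) had Slco1a4, 276 (69.3%) had Abcb1a and 306 (76.9%) had Slc2a1. Median depths were 1686.5 and 1563.5 UMIs over all stages, but at the late stage the 10 cells with Plvap had a median of 9041.5 UMIs against 1758 in those without, and the detections of Cldn5, Abcb1a, Mfsd2a and Slc2a1 in Plvap cells all came from that stage. In the 22 early and medium Plvap cells, with medians of 1310 and 1765.5 UMIs, these 4 genes and Slco1a4 were at 0. A count of 0 of 32 cells allows a share of up to 9.38% of cells with a UMI, and does not show that the gene is absent from them. Of the pumps Abcg2 was the most common in Plvap cells, in 6 of 32 (18.8%) against 161 of 398 (40.5%). Esm1 was seen in 10 of the 32 Plvap cells and in 0 of the 398 others, which allows up to 0.754%.

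A class that should lack these genes gives the background of such shares. In the 2386 oligodendrocyte-like cells outside the gate, which were deeper (median 2488 UMIs), Cldn5 and Abcb1a were each present in 0.293%, Slco1a4 in 0.0419%, Plvap in 0.168% and Esm1 in 0 cells, which allows up to 0.126%. Slc2a1, by contrast, was present in 22.1% of them. The shares of Slco1a4 and Abcb1a in the gated cells without Plvap lay above this level, while the share of Cldn5 is in part set by the gate.

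All 21 late Esm1 UMIs of the gated cells came from 1 cell. This cell of late library 1 held 13898 UMIs, among them 21 of Esm1, 20 of Apln, 29 of Angpt2, 29 of Cldn5, 16 of Mfsd2a and 1 of Plvap, with 0 of Slco1a4 and 1 of Slc2a1. Apln and Angpt2 are further genes of sprouting vessels. It lay in the large cluster, and the early and medium Esm1 cells in the small one. The Esm1 values of the libraries therefore rested on few cells, with 0, 34.9, 29.3 and 335 CPM early, 0, 48.8, 80.9 and 0 CPM medium, and 541, 0, 0 and 0 CPM late.

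Most late Plvap UMIs lay outside the gate. The cluster led by Itga8, which stayed unnamed, held 518 ungated late cells with 334 Plvap UMIs (87.1 CPM, 78.03 to 97.0), against 30 UMIs in all late gated cells. Plvap was detected in 146 of these cells (28.2%, 24.3 to 32.3), and in 30.4%, 27.6%, 29.6% and 24.5% of them in the 4 libraries. Late oligodendrocyte-like cells had Plvap in at most 1.32% of cells of a library. The Itga8-led cells were deep, with library medians from 5639.5 to 7360.5 UMIs, and they held the human EGFR transgene at 1366 CPM. They also held 132 Cav1 UMIs (34.4 CPM). Late neuron-like cells had Plvap in 5.56% to 17.1% of cells per library, and medium glioma-like or progenitor-like cells held 54 Plvap UMIs in 4.94% of cells.

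Other barrier genes were compared between the late and early stages within the endothelial-like clusters, list by list and again without the members and gate genes. Of 10 junction genes with at least 20 UMIs, 0 were 2-fold higher and 1 was lower (median log2 ratio -0.01). The lower one was Afdn, a scaffold of adherens junctions, with 36, 47 and 7 UMIs (log2 ratio -1.62, or -0.98 without late library 2). Of 19 transporters 2 were higher and 0 lower (median 0.27). These were the amino acid transporters Slc38a3 (157, 272 and 418 CPM, log2 ratio 1.41) and Slc38a5 (258, 369 and 564 CPM, 1.13). Slc38a5 was at 0.87 without early library 3, 0.99 without late library 3 and 0.9988 without late library 4. Of 17 genes of Wnt signaling and barrier regulation 1 was higher (Fzd6, 1.28) and 0 lower (median 0.05), of 6 genes of caveolae and diaphragms 0 in either direction (0.02), and of 8 capillary genes also 0 (0.30).

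Genes of tip cells and angiogenesis, Esm1 included, were higher late in 12 of 18 and lower in 1, with a median log2 ratio of 1.70 (12 and 1 of 17 without Esm1). Of all 3714 genes in these cells 11% were higher and 10.9% lower. This count rested in part on the late cell with Esm1, without which it was 7 higher and 1 lower of 15 (median 0.90). Without late library 1 it was 5 higher and 2 lower of 11 (median 0.63). Over all omissions of a single library, the number higher ranged from 5 to 13. Apln held 0, 0 and 35 UMIs, the last in 5 cells of 3 libraries, and 15 of them remained without the Esm1 cell.

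Other genes of this list rested on the Esm1 cell to differing degrees. Cxcr4, a chemokine receptor, was at 13.1, 23.0 and 161 CPM and was detected in 1.99% of early and 14.9% of late cells, with at least 1 UMI in 4 of 4 late libraries. Aplnr, the apelin receptor, was at 17.5, 13.8 and 161 CPM. The basement membrane collagen genes Col4a1 (485, 539 and 1415 CPM) and Col4a2 (341, 452 and 1166 CPM) were at 1086 and 833 CPM late without the Esm1 cell. Angpt2, at 43.7, 115 and 286 CPM, was at 81.6 CPM without it.

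Genes of vessel types and of leukocyte adhesion were few at this depth. Of 5 venous genes 4 were higher late, among them Tmsb10 (log2 ratio 1.45) and Vwf (1.22), but 1 of 5 without early library 3. Vwf was at 0.67 without late library 2 and 0.79 without early library 3, and Tmsb10 was at 0.98 without late library 1. Of 5 leukocyte adhesion genes 3 were higher (Cd34 1.10, Vcam1 1.09 and Cd74 1.64), but 0 of 4 without early library 2 and 1 of 4 without early library 3. Without late library 2 Vcam1 was at -0.72 and Cd74 held 0 late UMIs. Cd34 was at 0.61 without late library 1, 0.91 without early library 2 and 0.85 without the late cell with Esm1. Vcam1 was at 0.86 without early library 4. Of 7 arterial genes 3 were higher and 1 lower (median 0.85), against 2 and 1 of 6 without early library 3 (0.17) and 2 and 2 of 7 without late library 1 (0.25). Of 13 immediate-early and heat shock genes 1 was higher and 2 were lower (median 0.29, or -0.33 without late library 2). The heat shock genes Hspa1a (-1.70) and Hspa1b (-1.23) were lower late, and the transcription factor gene Fosb was higher (1.10, or 0.83 without late library 1 and 0.84 without early library 3). Without early library 2 Hspa1b was at -0.89.

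**Figure D5:**
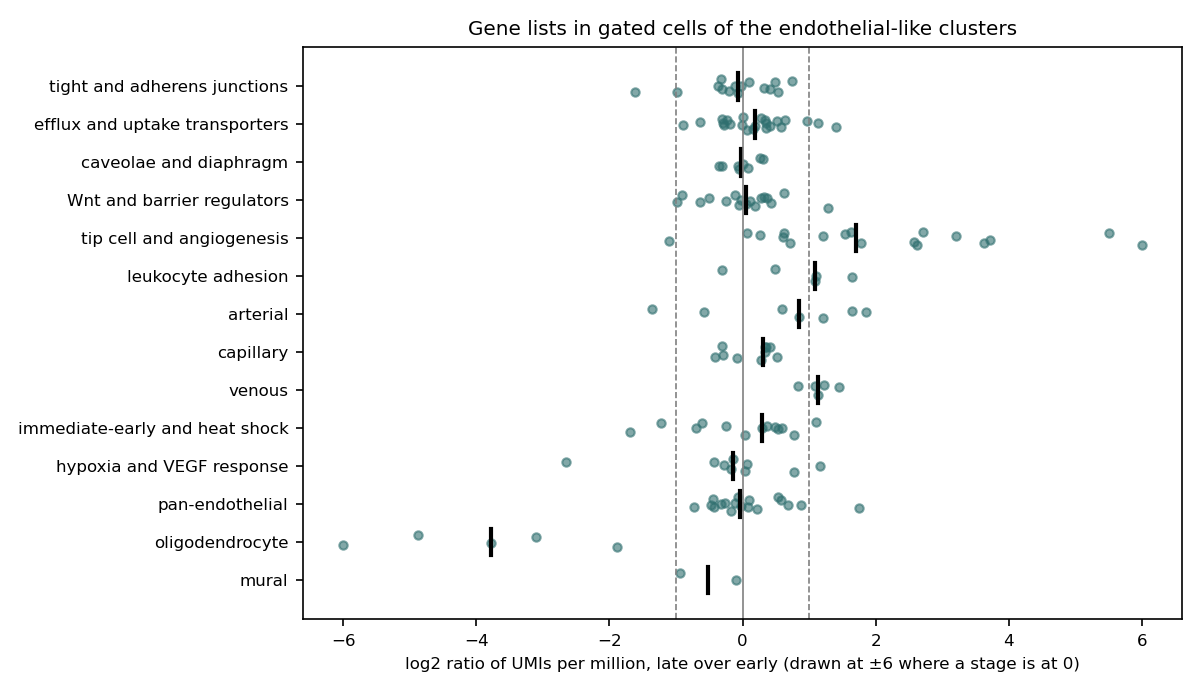
Log2 ratio of late over early CPM within the endothelial-like clusters for genes with at least 20 UMIs over both stages, by list, with the members and gate genes kept in their lists, dots for genes, black bars for medians and dashed lines at 2-fold. Tip cell and angiogenesis genes have a median of 1.70, while junction (-0.07), transporter (0.19) and caveolae genes (-0.02) lie near 0.

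Among all genes with at least 100 UMIs in these cells over both stages, the highest late over early ratios were those of Hba-a1 (log2 ratio 2.30), Col4a2 (1.77), Cd93 (1.75), Serpinh1 (1.70) and Pdgfb (1.65). Among the lowest were Mbp (-4.20), Ptgds (-3.88), Ttr (-2.17) and Gpm6b (-2.04), which are abundant genes of oligodendrocytes, meninges, choroid plexus and glia. Hba-a1 is a haemoglobin gene of red cells, and all its 85 late UMIs lay in late library 2, so that without it the late count was 0 against 29 early UMIs. Ttr was at -0.67 without early library 3 and at -6.07 without late library 2. The other 7 of these genes stayed at least 2-fold different in the same direction in each of the 8 omissions of a single library. Cd93, a surface receptor of endothelial cells, was at 332, 493 and 1114 CPM, and Pdgfb, the ligand that recruits pericytes, at 166, 369 and 520.5 CPM.

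Over 29 columns of cell class and stage, the genes whose level as log2(CPM + 1) was most like the mean of the members were Robo4 (Pearson r 0.915), Gm32688 (0.914), Dll4 (0.903), Nostrin (0.900) and Slc19a3 (0.889), out of 11760 genes. The columns share libraries and depth, so these values only describe the pattern. Among the members Cldn5 was most like the other 9 (0.83) and Mfsd2a least (0.48). Cldn5 is a gate gene, so its value is in part set by the gate, as is the mean of the members that holds it.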

How the data were processed

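CD45- cells of early, medium and late mouse gliomas were measured by inDrop single-cell RNA sequencing. The authors mapped reads with RapMap in bcbio-nextgen to the GRCm38 transcriptome (mm10 per the submitters' processing notes) with transgenes added, and separated cells from empty droplets. The deposited values are counts of UMIs, not normalized, for each gene in each cell. The deposited library annotation (unit: other) gives run, sort and stage. The methods state removal of ambient RNA and doublets, but not whether this preceded the table. The CD45+ sort (11720 cells) was not used here. The 10 members, the gene lists and the tests were chosen with earlier results of these data known.

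Of 9091 CD45- cells, those with at least 500 UMIs, at least 500 genes and at most 20% mitochondrial UMIs were kept (6676), and 80 doublets called by Scrublet (expected rate 6%) were removed, leaving 6596. Cells were clustered with scanpy 1.11.5 (2000 variable genes, 40 principal components, 20 neighbours, resolution 1, seed 1), without the members other than Cldn5 and without pathway genes that mark no class. Of the 21 clusters, each took a class name with at least 3 markers 2-fold higher and in at least 10% of its cells, and with at least 50% of the marker list, a limit set after the clusters were seen. The classes are rebuilt and may differ from those of the study.

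Counts were summed per tumor sample and tested with the edgeR quasi-likelihood test (edgeR 4.0.16, R 4.3.3; TMM, filterByExpr, robust, two-sided, Benjamini-Hochberg over all genes tested, threshold 0.05), with the tumor sample as a block. Gated and other cells of a pair come from the same tumor and sort, and their deviations from the group means correlated at 0.303, 0.167 and 0.299 for the early, medium and late sample over 15417 genes. The tumor samples are numbered as replicates 1 (early), 2 (medium) and 3 (late). SEs of fold changes come from the fitted model. The 4 gate genes were described and not tested. The script was tested on simulated data with known changes. Stages were compared as CPM ratios of summed counts, with called meaning at least 2-fold among genes with at least 20 UMIs over both stages. The 95% intervals (exact Poisson, exact binomial) cover counting error only, not the spread between animals. A count of 0 is read as at most 3 counts.

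Named genes were the members, up to 4 genes per list with the largest late over early ratio, the 5 highest and 5 lowest genes with at least 100 UMIs, and the 5 genes most like the members. An allele of the mice and 1 gene that this rule names are not reported here. Alternatives were other gates, scalings, filters, DESeq2 1.42.0, no block, depth thinning to 1000 UMIs and omission of libraries or samples. Further genes of the tip cell list and Slc2a1 were named after their values were seen. Counts of the lists without members and gate genes were likewise added after seeing the data.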

Additional observations from a re-analysis of the deposited data

Results flagged for a closer look

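The level of each member in gated cells was compared among the 4 libraries of each stage, 30 groups in all, and in 5 groups 1 library stood apart from the other 3 by more than Dixon's 95% critical value. For normal values of equal spread chance alone marks about 1 in 20 groups, but these CPM rest on few counts, so that rate may not hold. Where 3 libraries are at 0, any count in the other stands apart. Late library 1 stood apart for Esm1 (541 CPM, the others at 0), Mfsd2a (696 CPM against 132 to 197 CPM) and Cav1 (258 CPM against 43.9 to 49.3 CPM). In that library 1 cell gave 21 of 21 Esm1 UMIs and 16 of 27 Mfsd2a UMIs, and 0 of the Cav1 UMIs. Early library 4 stood apart for Esm1 (335 CPM against 0 to 34.9 CPM), and medium library 4 for Cav1 (366 CPM against 214 to 226 CPM).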

How the results depend on the processing

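Of the comparison counts recomputed under other settings, 135 stayed within 1.5 times and 49 did not. Of the values of single genes 775 counted as the same, 110 moved, 11 newly passed the threshold and 6 no longer did. A further 2 reversed (Cav1 and Esm1, given with their values). A stage ratio counted as the same inside the counting interval of the main value, whatever its sign, and as moved outside it. A fold change counted as the same where its sign and call were kept. Stage ratios counted as reversed only where the main value was at least 2-fold, and fold changes at any change of sign. The cause was not tested for any of them. The number of members at least 2-fold lower late than early in gated cells was 6, against 2 with a gate of at least 5 UMIs (Abcb1a and Abcg2), 0 in endothelial-like clusters, and 1 with cells carrying mural or oligodendrocyte UMIs left out (Abcb1a), with a mean over cells (Esm1), with cells thinned to 1000 UMIs (Plvap) and with cells under 5000 UMIs (Esm1). It was 8 with a gate of at least 2 UMIs (Cldn5, Ocln, Mfsd2a, Abcb1a, Abcg2, Slco1a4, Esm1 and Cav1), 7 with TMM (Tjp1 joined), 7 within run 3, 5 with a gate without Cldn5 or with called doublets kept, and 4 to 7 with single libraries left out. Late over early, 3 log2 ratios under 2-fold also changed sign. Mfsd2a (-0.61) was 0.25 with a mean over cells, 0.18 with thinning, 0.24 under 5000 UMIs, 0.07 with mural or oligodendrocyte cells left out and 0.52 in endothelial-like clusters. Plvap (-0.59) was 0.36 with a mean over cells, 0.07 under 5000 UMIs, 0.46 with mural or oligodendrocyte cells left out, 0.0085 in endothelial-like clusters, 0.30 within run 3 and, past the 2-fold limit, -1.31 without late library 4. Esm1 (-0.50) was 0.04 with a gate of at least 5 UMIs, 0.07 with mural or oligodendrocyte cells left out, 0.61 in endothelial-like clusters, 0.80 without early library 4 and 0.69 without late library 2. Under the cell limit of 5000 UMIs the log2 ratio of Cav1 was 0.0074 and that of Abcb1a -0.71. With TMM between the stages Cldn5 was at -1.37 and Abcb1a at -2.07. Medium over early, 0 members were higher, against 1 with a gate of at least 2 UMIs, a gate without Cldn5, mural or oligodendrocyte cells left out, within run 2 or run 3 and under 5000 UMIs. For lower members the count was 0, against 1 with a gate without Cldn5, TMM, thinning or within run 2. Leaving out single libraries gave 0 to 1 in both directions.

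In endothelial-like clusters late over early, 0 members were higher, against 1 in the large cluster alone (Esm1), and 0 were lower, against 1 without the late Esm1 cell (Esm1), with thinning (Plvap) or with a mean over cells (Esm1). Single libraries left out gave 0 to 1 higher and 0 to 1 lower, the lower one being Esm1 without late library 1, Abcb1a without late library 2 and Plvap without late library 4. Medium over early, they gave 0 to 2 higher and 0 to 1 lower.

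Between gated and other cells 1094 genes were higher and 1066 lower. Without the replicate block, which treats the pairs as unpaired samples, these were 824 and 610. The count lower was 572 with a gate of at least 2 UMIs, 1649 with at least 5 UMIs and 2065 in endothelial-like clusters. Leaving out 1 tumor sample gave 814 to 1097 higher and 616 to 1350 lower, with the lowest count lower without the early sample. DESeq2 gave 1116 and 902. Without the block Plvap passed the threshold (adjusted p = 0.0329), and the other 8 tested members kept their calls. Across all alternatives of this comparison the adjusted p of Plvap ranged from 1.3e-21 to 0.221. With classes from marker sums, genes higher and lower against astrocyte-like cells were 702 and 337, in place of 1181 and 986, and genes lower against fibroblast-like cells were 151, in place of 421. The Esm1 fold change against astrocyte-like cells then was 4.54 (adjusted p = 0.172), in place of -0.05.

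Esm1 rested on 13 to 23 UMIs in 5, 4 and 1 gated cells of the early, medium and late stages, so its ratios rest on few cells.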
